A study of Mus musculus with 12 samples.

Results

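The comparison described here sets the 3 back-skin wounds labelled post-MCS-01 against the 3 wounds labelled blank, 6 of the 12 libraries of a study of wound healing in diabetic mice. The members are the libraries whose treatment label reads post-MCS-01 or blank. The mice behind all 12 libraries were of the C57BL/6 strain, and streptozotocin, a toxin of the insulin-producing beta cells, had been used to make them diabetic, so the blank mice were diabetic too and no healthy wound entered the comparison. The other 6 libraries were 3 labelled pre-MCS-01 and 3 labelled DSCG. The study's title names MCS-01 as a mast cell stabilizer, and the comparison addresses what transcripts differed between wounds under the post-MCS-01 label and blank wounds. The labels used here do not say what "pre", "post" and "blank" refer to, at which dose or time the agent was given, how old the mice were, or when the wounds were taken. Each library carries its own mouse number, so a replicate is 1 mouse.

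Mast cells are tissue-resident immune cells that store proteases, histamine and heparin in granules and release them when activated, and a mast cell stabilizer is a compound that holds this release back. A healing skin wound passes through neutrophil and macrophage infiltration, migration of keratinocytes across the wound bed, and matrix deposition. Hair follicles at the wound edge and in the skin taken with it go through cycles of growth (anagen) and rest (telogen), and only growing follicles make hair keratins, keratin-associated proteins and inner root sheath proteins in quantity.

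RNA sequencing reads had been counted per gene symbol by the authors. The post-MCS-01 libraries held 37702643, 42935324 and 40917382 gene counts, against 50461867, 45704405 and 3835042 in the blank libraries, so that blank replicate 3 was the shallowest of all 12. A gene with no read in blank replicate 3 could still lie at up to 0.782 CPM (counts scaled to a common depth; the limit that 0 counts allows, taken as 3 counts), against 0.0595 to 0.0796 CPM in the other 11 libraries. These limits cover counting error only. Blank replicate 3 also had lower values in genes with long transcripts: across 15521 genes, the rank correlation between a gene's exon length and its level relative to the other libraries was -0.343 in it, against -0.0604 to 0.256 in the post-MCS-01 libraries and 0.25 and 0.314 in the other blank libraries. In bulk tissue, fewer cells of a type and less RNA per cell cannot be told apart.

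In the wounds labelled post-MCS-01, transcripts of the hair shaft and of its inner root sheath lay far below their level in each of the 3 blank wounds. Hair keratins had a median log2 fold change of -8.58, inner root sheath genes of -7.31 and keratin-associated proteins of -8.67, against -0.01 over all 16267 genes tested, whose 5th and 95th percentiles were -1.06 and 0.85. The genes that were higher in post-MCS-01 wounds by the smallest p were led by Sod2, the mitochondrial superoxide dismutase, and included the epithelial and immune genes Il20, Defb3, Saa1, Chil3 and Gzmb. Transcripts of the main mast cell proteases overlapped between the groups. The model of all 12 libraries called no gene.

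That model was edgeR's quasi-likelihood test, fitted to all 12 libraries with a mean for each of the 4 treatments and Benjamini-Hochberg adjustment over 16267 genes. At an adjusted p under 0.05 it called 0 genes (0% of those tested) between post-MCS-01 and blank, and the smallest adjusted p was 0.0692. At an unadjusted p under 0.05, 1521 genes stood out (9.35%): 636 higher (3.91%) and 885 lower (5.44%). The post-MCS-01 values lay above all blank values for 1451 genes (8.92%) and below all of them for 1537 (9.45%). The same test on the 6 libraries alone called 255 of 15850 genes (1.61%), 61 higher (0.385%) and 194 lower (1.22%), with a biological coefficient of variation of 0.289, against 0.347 over the 12 libraries. DESeq2 on 12 libraries called 134 higher and 275 lower, of which 225 were among the 255. Without blank replicate 3, the 6-library test called 5 genes higher and 104 lower, and without blank replicate 1, blank replicate 2 or post-MCS-01 replicate 1 it called 153, 164 and 166 in all. Of the genes named in the text that passed in the 6-library fit, Krt84 aside, 8 of the 26 lower ones and 25 of the 27 higher ones lost that call when at least 1 of the 6 libraries was left out; the 2 higher genes that kept it throughout were Saa1 and Cyp7b1. Below, a gene is said to pass in the 6-library fit where its adjusted p there was under 0.05. An exact permutation test of 3 against 3 cannot go below p = 0.1 (two-sided), so none is given for single genes.

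**Figure D1:**
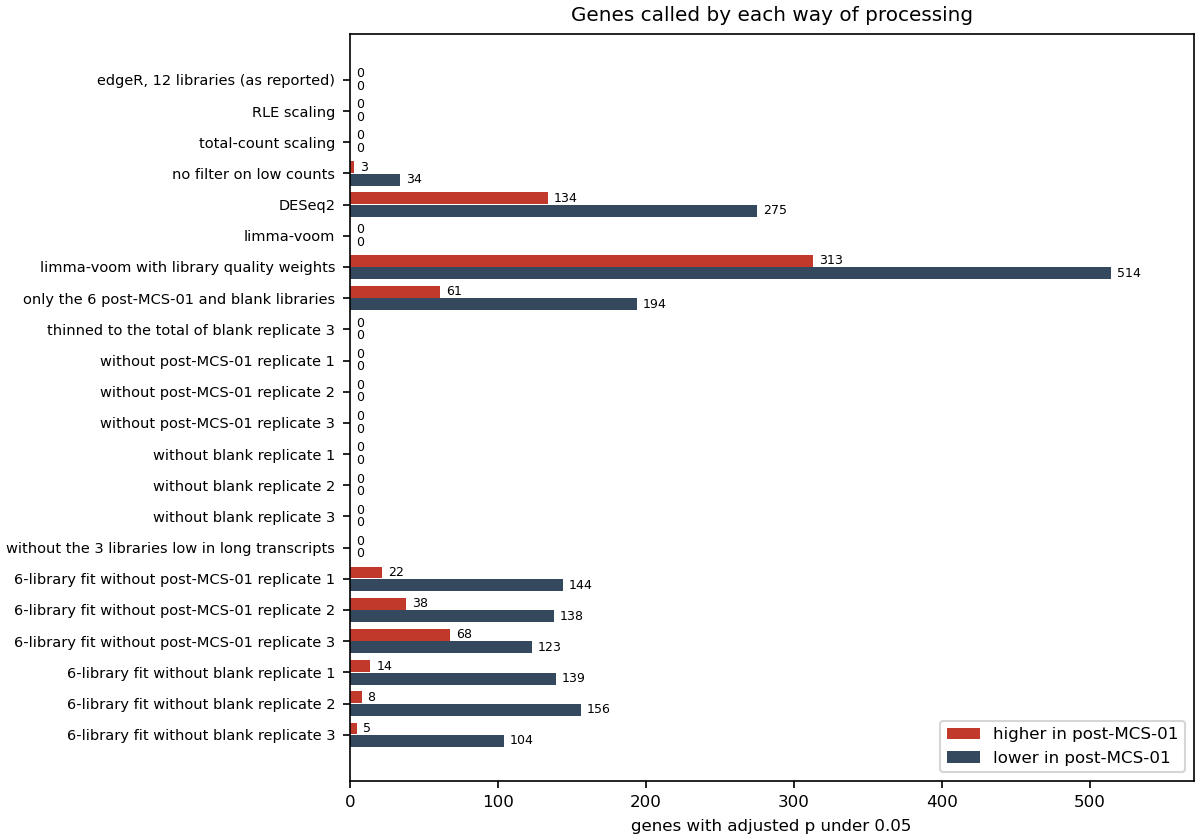
Number of genes with an adjusted p under 0.05 between post-MCS-01 and blank wounds (x axis) for each way of processing (y axis), with genes higher in post-MCS-01 above and genes lower below in each pair of bars. The 12-library edgeR fit gave 0 and 0, the 6-library fit 61 and 194, and each setting that called more than 0 genes called more lower than higher.

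The 10 genes with the smallest p among those lower in post-MCS-01 wounds were Fam26d, Krt72, Krt33a, Tchh, Lyg2, Krtap11-1, Krt31, Crnn, Krt26 and Padi3. Promoters are shown for Krt31 and Krtap11-1, which represent the hair shaft genes, and for Il20 and Cxcl1, which represent the cytokine and chemokine genes that were higher. Each runs from 250 bases before to 50 bases after the annotated start, 5′ to 3′ on the gene's strand, as RefSeq gives it for GRCm38.p6. Krt31 lies at chr11:100050502-100050801 (minus strand), Krtap11-1 at chr16:89571134-89571433 (minus), Il20 at chr1:130911247-130911546 (minus) and Cxcl1 at chr5:90890995-90891294 (plus). Capitals mark matches to 3 motifs searched on both strands. The first is the TATA box, written TATAAA, which places the start of transcription in many genes. The second is a site of LEF/TCF factors, the nuclear partners of Wnt signalling, written CTTTGAA. The third is the motif of NF-kappaB, an inflammatory factor.
Krt31: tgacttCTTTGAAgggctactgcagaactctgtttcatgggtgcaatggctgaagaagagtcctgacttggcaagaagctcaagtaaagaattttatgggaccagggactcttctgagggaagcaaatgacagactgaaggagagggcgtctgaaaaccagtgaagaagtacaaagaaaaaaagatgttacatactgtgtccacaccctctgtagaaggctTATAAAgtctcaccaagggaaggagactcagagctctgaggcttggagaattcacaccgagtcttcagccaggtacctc
Krtap11-1: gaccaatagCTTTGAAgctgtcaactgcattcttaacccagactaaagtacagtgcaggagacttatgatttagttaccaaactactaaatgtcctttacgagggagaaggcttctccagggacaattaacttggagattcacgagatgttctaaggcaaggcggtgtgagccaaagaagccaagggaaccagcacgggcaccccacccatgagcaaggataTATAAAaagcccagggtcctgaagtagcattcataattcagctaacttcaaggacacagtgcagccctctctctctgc
Il20: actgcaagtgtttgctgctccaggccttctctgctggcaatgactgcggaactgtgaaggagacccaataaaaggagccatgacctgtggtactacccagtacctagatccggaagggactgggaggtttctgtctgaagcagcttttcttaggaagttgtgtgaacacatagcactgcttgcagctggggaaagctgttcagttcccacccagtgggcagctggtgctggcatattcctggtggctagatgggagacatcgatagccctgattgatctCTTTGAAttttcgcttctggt
Cxcl1: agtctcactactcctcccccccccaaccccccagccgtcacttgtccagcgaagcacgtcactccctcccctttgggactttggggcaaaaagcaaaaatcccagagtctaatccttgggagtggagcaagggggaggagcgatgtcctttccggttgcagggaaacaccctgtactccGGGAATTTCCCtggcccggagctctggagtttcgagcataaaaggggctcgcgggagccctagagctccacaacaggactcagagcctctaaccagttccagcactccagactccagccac

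The promoters of Krt31 and Krtap11-1 each held a TATAAA that began 29 and 28 bases before the start. TATAAA occurred in 6 of the 9 hair keratin promoters in the RefSeq table (66.7%), in 8 of 10 inner root sheath promoters (80%) and in 38 of 46 keratin-associated protein promoters (82.6%), against 14.2% of all 27025 promoters. Over the promoters of genes tested the share was 8.9%. Among the genes with higher values TATAAA occurred in 2 of 5 promoters of neutrophil-recruiting chemokines (40%) and in 2 of 9 promoters of the 10 genes with the smallest p (22.2%). For wound-activated keratinocyte genes it was 1 of 8 (12.5%). CTTTGAA occurred in 5 of the 9 hair keratin promoters (55.6%), 2 of 10 inner root sheath promoters (20%) and 9 of 46 keratin-associated protein promoters (19.6%). For wound-activated keratinocyte genes it was 1 of 8 (12.5%). The share was 5.27% of all promoters and 4.02% of those of genes tested. CTTTGAA also occurred in Il20, downstream of the start, the 1 match in 9 promoters of the 10 higher genes (11.1%), against 4 of 8 promoters of the 10 lower genes (50%). The 10 lower genes share members with the hair sets above, so their share is not a separate result. The NF-kappaB motif occurred in 3 of 5 promoters of neutrophil-recruiting chemokines (60%), against 1.43% of all promoters; in Cxcl1 it matched on both strands, and the matches overlap. These matches describe the letters only.

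Hair keratins are the filament proteins of the hair cortex and cuticle. Krt31, a type I hair keratin of the cortex, had 0.504, 0.024 and 0.161 CPM in post-MCS-01 wounds, against 219, 75.1 and 90.1 CPM in blank wounds. All 3 post-MCS-01 values were under 1 CPM, and the groups did not overlap. Its log2 fold change was -9.12 ± 1.42 (SE, n = 3 each; edgeR adjusted p = 0.0692 over 12 libraries and 0.00365 over the 6). Krt81, a type II hair keratin that pairs with type I chains, had 0.328, 0 and 0.023 CPM in post-MCS-01 wounds, against 189, 72.4 and 90.9 CPM in blank wounds. Krt86, another type II hair keratin, averaged 0.317 ± 0.213 CPM in post-MCS-01 wounds and 173 ± 122 CPM in blank wounds (SD, n = 3 each). Blank replicate 1 was the highest of the blank wounds for each of these keratins. All 15 hair keratins tested had values below every blank value, against 9.45% of all genes tested. Their log2 fold changes were -9.98 to -2.85. Of these keratins, 14 passed in the 6-library fit, against 1.22% of all genes passing lower there. The exception was Krt35, a keratin of the lower hair shaft, with a log2 fold change of -6.35 and an edgeR adjusted p of 0.0704 over the 6 libraries. The smallest difference was that of Krt84, a type II keratin made outside the hair shaft too, in tongue papillae. Summed over the list, hair keratins held 11.4, 8.42 and 11.2 CPM in post-MCS-01 wounds and 1938, 706.5 and 843.4 CPM in blank wounds.

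The inner root sheath is the layer that moulds the growing hair and is shed below the skin surface. Trichohyalin (Tchh), its cross-linked matrix protein (GRCm38 chr3:93442330-93449077, plus strand), had 42.4, 27 and 25 CPM in post-MCS-01 wounds, against 7414, 3158 and 1952 CPM in blank wounds. No post-MCS-01 value reached the blank range, and the log2 fold change was -7.05 ± 1.08 (edgeR adjusted p = 0.0692 over 12 libraries and 0.00365 over the 6). Krt72, a type II keratin of this layer, had 0.731, 0 and 0.184 CPM in post-MCS-01 wounds and 572, 195 and 288 CPM in blank wounds, a log2 fold change of -10.18 ± 1.54. Krt71, the type II keratin mutated in curly-coated mice, had 20.7, 0.072 and 21.3 CPM in post-MCS-01 wounds, against 6684, 1767 and 2631 CPM in blank wounds. Post-MCS-01 replicate 2 thus lay far below its 2 group mates, and with that spread Krt71 did not pass in the 6-library fit (edgeR adjusted p = 0.0809). Krt25, a type I partner of Krt71, showed the same order, with 5.97, 0.072 and 13 CPM in post-MCS-01 wounds and 2089.8, 609 and 1061 CPM in blank wounds. Krt26, a further type I keratin of this layer, and Padi3, the enzyme that turns arginines of trichohyalin into citrulline, passed in the 6-library fit with log2 fold changes of -8.92 and -7.31. Over all genes, 9.45% lay below every blank value and 1.22% passed lower in the 6-library fit. Of the 11 genes of the list, 10 lay below every blank value and 8 passed in the 6-library fit. The remaining gene went the other way: Tgm3, a cross-linking transglutaminase also made in the epidermis, had a log2 fold change of 1.24 ± 0.48 and lay above every blank value.

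Keratin-associated proteins (Krtap genes) are small sulphur- or glycine-rich proteins that embed the hair keratin filaments. Krtap11-1, a high-sulphur member, had 0.176, 0.072 and 0.161 CPM in post-MCS-01 wounds, against 218, 55.9 and 107 CPM in blank wounds, with a log2 fold change of -9.83 ± 1.52 (edgeR adjusted p = 0.0692 over 12 libraries and 0.00348 over the 6). Krtap1-3, of a cortex subfamily, had 0.126, 0 and 0 CPM in post-MCS-01 wounds and 92.7, 31.3 and 21.2 CPM in blank wounds. Krtap1-4 had 3 counts over the 3 post-MCS-01 libraries and 6510 over the blank libraries, which after scaling for depth is a ratio of 2634, blank over post-MCS-01, with a 95% counting interval of 901 to 12777. That interval covers counting error of the pooled counts only, not the spread between mice. The fold fitted by edgeR was 1885, blank over post-MCS-01. Krtap1-5 had 1.34, 0.024 and 0.0918 CPM in post-MCS-01 wounds, against 161, 76.2 and 50.3 CPM in blank wounds. Of 51 Krtap genes tested, 51 were lower at an unadjusted p under 0.05, against 5.44% of all genes. Below every blank value lay 48, against 9.45%, and 47 passed in the 6-library fit, against 1.22% passing lower. Many Krtap genes were near 0 in post-MCS-01 wounds and passed the low-count filter through the other groups. Their shared direction was thus partly set by the filter, as for hair keratins near 0. No count was seen in any post-MCS-01 library for 7 of the 51. For these a fold is only a bound, set against 3 counts over the group. Krtap5-4, of the ultra-high-sulphur cuticle class, was at least 491-fold lower in post-MCS-01 wounds and Krtap24-1 at least 166-fold lower. With such genes at their bound, the median of the 51 was -8.57. Summed over the list, post-MCS-01 wounds held 17.3, 0.264 and 2.52 CPM and blank wounds 4139, 1561 and 1785 CPM. Many Krtap and hair keratin genes are near-identical copies in clusters, and reads with more than 1 alignment were left out of the counts, so the level of a single copy is uncertain.

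Of the remaining genes among the 10 lower ones, all but Krt33a have less settled or other roles. Fam26d, a member of the calcium homeostasis modulator channel family, had 2 counts in post-MCS-01 libraries and 1813 in blank libraries, a depth-scaled ratio of 1100, blank over post-MCS-01 (95% counting interval 304 to 9093). Lyg2, a goose-type lysozyme, had 2 and 1538 counts in post-MCS-01 and blank libraries, a ratio of 933.5 (258 to 7715). These intervals cover counting error of the pooled counts only, not the spread between mice. The folds fitted by edgeR were 793 for Fam26d and 629 for Lyg2, blank over post-MCS-01. Crnn (cornulin), a fused S100 protein of the cornified layer, had 1.18, 0.36 and 0.597 CPM in post-MCS-01 wounds, against 226, 70.6 and 78.3 CPM in blank wounds. Krt33a, a type I hair keratin, averaged 0.198 ± 0.200 CPM in post-MCS-01 wounds and 160 ± 110 CPM in blank wounds (SD, n = 3 each). All 4 were without overlap between the groups. Beyond this list, and chosen after their values were seen, Dsg4, the desmosomal cadherin of the hair shaft, and Gprc5d, an orphan receptor of the hair cortex, had log2 fold changes of -6.53 and -9.31 and passed in the 6-library fit. In all, 69 of the 194 genes that were lower in that fit stood in the hair keratin, inner root sheath or Krtap list. These lists hold 15, 11 and 51 of the 16267 genes tested over 12 libraries.

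**Figure D2:**
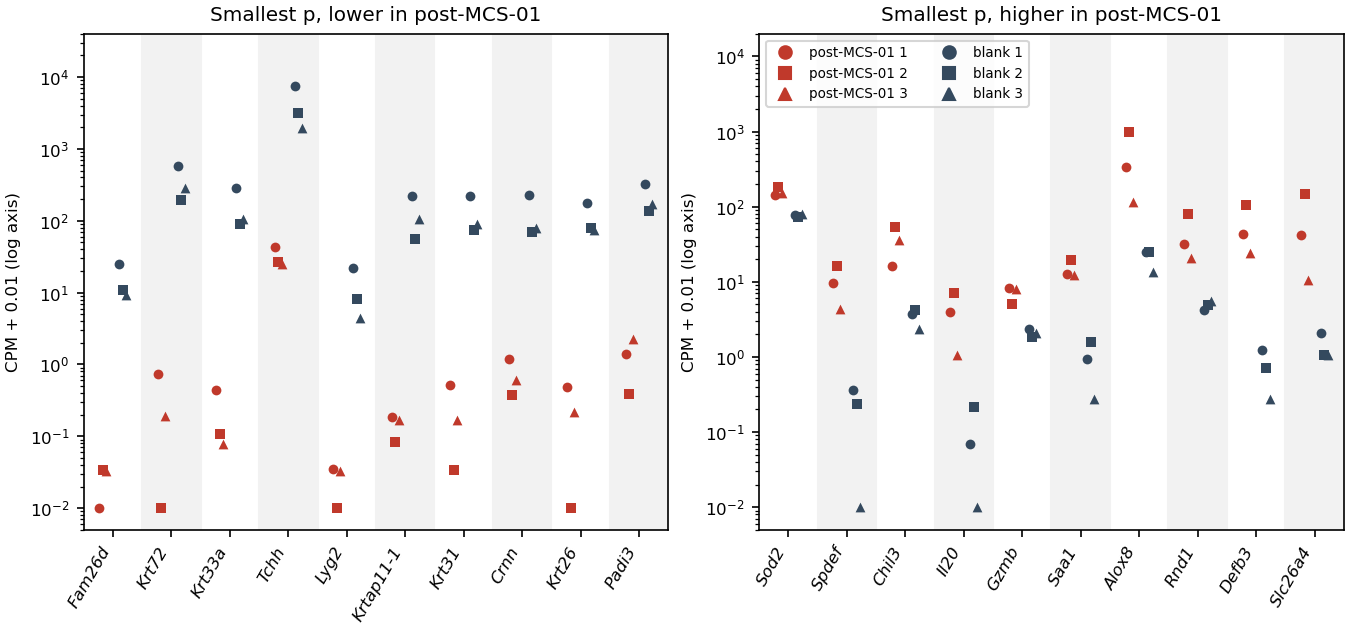
CPM plus 0.01 in each library (log axis) for the 10 genes lower (left) and the 10 genes higher (right) in post-MCS-01 wounds by the smallest p, with post-MCS-01 libraries left of blank libraries for each gene and symbols giving the replicate. The groups do not overlap for any of the 20 genes; Tchh lay at 25 to 42.4 CPM in post-MCS-01 wounds and at 1952 to 7413 CPM in blank wounds.

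Transcription factors and signals of the hair cycle differed by less than the structural genes. Hoxc13, a homeobox factor that drives hair keratin genes, had 12.1, 4.29 and 6.56 CPM in post-MCS-01 wounds, against 106, 65.7 and 42.4 CPM in blank wounds, a log2 fold change of -3.23 ± 0.74 (edgeR adjusted p = 0.110 over 12 libraries and 0.0173 over the 6). Msx2, a homeobox factor of the hair matrix, had 5.64, 8.97 and 6.04 CPM in post-MCS-01 wounds and 67.4, 23.6 and 38.3 CPM in blank wounds, and it passed in the 6-library fit too. Neither gene overlapped between the groups. Fgf5, the growth factor that ends anagen, also passed, at 0.276 ± 0.133 CPM in post-MCS-01 wounds and 5.25 ± 3.10 CPM in blank wounds. Lef1, a Wnt-responsive factor of the hair matrix, had a log2 fold change of -2.54 and did not pass (edgeR adjusted p = 0.196 over the 6 libraries). Foxn1, the factor mutated in nude mice, overlapped between the groups, with 17.4, 44.7 and 16.1 CPM in post-MCS-01 wounds and 45.6, 27.7 and 29.3 CPM in blank wounds. Of 18 genes in the list, 9 were lower at an unadjusted p under 0.05 and 0 higher, against 5.44% and 3.91% of all genes. The median was -1.24.

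Melanocytes colour the growing hair and multiply with it. Their 12 genes had a median log2 fold change of -1.87, and 10 of the 12 lay below every blank value, against 9.45% of all genes. Pmel, the fibril protein of the melanosome, had 9.98, 3.48 and 12.6 CPM in post-MCS-01 wounds, against 50, 16.7 and 24.4 CPM in blank wounds. Tyr, the rate-limiting enzyme of melanin synthesis, had 1.54, 0.84 and 2.18 CPM in post-MCS-01 wounds and 11.3, 2.54 and 4.45 CPM in blank wounds. Dct, which acts after tyrosinase, averaged 15.7 ± 9.64 CPM in post-MCS-01 wounds and 47.7 ± 27.2 CPM in blank wounds (SD, n = 3 each). Post-MCS-01 replicate 2 was the lowest and blank replicate 1 the highest of the 6 libraries for each of the 3 genes. Without blank replicate 1 the median was -1.06. At an unadjusted p under 0.05, 8 of 12 were lower, against 5.44% of all genes, but 0 passed in either edgeR fit.

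Set against the other 9 libraries of the series, the post-MCS-01 wounds held the lowest values for 14 of 15 hair keratins, 10 of 11 inner root sheath genes, 47 of 51 Krtap genes and 8 of 12 melanocyte genes, against 3.3% of all genes tested. The 9 include the 3 blank wounds, so these counts are not independent of the comparison above. Many Krtap genes and some hair keratins, near 0 in post-MCS-01 wounds, passed the low-count filter through these other libraries. Their counts here were thus partly set by the filter. The edgeR fit of 12 libraries called 3 genes with higher values (0.0184%) and 131 with lower values (0.805%) in post-MCS-01 wounds when these were set against pre-MCS-01 wounds. Set against DSCG wounds, 23 were higher (0.141%) and 149 lower (0.916%). Krt31 had a log2 fold change of -10.25 against pre-MCS-01 (adjusted p = 0.0313) and of -10.36 against DSCG (adjusted p = 0.0288) in that fit. The 3 comparisons share the post-MCS-01 libraries. The pooled hair keratin level varied within the other groups as well: the 3 pre-MCS-01 wounds summed to between 1121 and 5322 CPM and the 3 DSCG wounds to between 153.6 and 4744 CPM.

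Among the genes higher in post-MCS-01 wounds, Sod2, which converts superoxide to hydrogen peroxide in mitochondria, had the smallest p. Sod2 (GRCm38 chr17:13006846-13040063, plus strand) had 143, 181 and 149.8 CPM in post-MCS-01 wounds, against 76.7, 71.7 and 80.7 CPM in blank wounds. The groups were each narrow and did not overlap; the log2 fold change was 1.05 ± 0.19 (edgeR adjusted p = 0.0729 over 12 libraries and 0.0342 over the 6). The 6-library call was lost whichever of the 6 libraries was left out, with edgeR adjusted p-values of up to 0.159. Spdef, an ETS factor known for driving goblet cell differentiation in airway and gut, had 9.67, 16.1 and 4.31 CPM in post-MCS-01 wounds and 0.353, 0.229 and 0 CPM in blank wounds, a log2 fold change of 5.23 ± 0.94. Slc26a4 (pendrin), an anion exchanger of inner ear, kidney and inflamed epithelium, had 42.2, 148 and 10.7 CPM in post-MCS-01 wounds, against 2.04, 1.04 and 1.05 CPM in blank wounds. Alox8, a lipoxygenase of inflamed mouse epidermis, had 338, 978 and 114 CPM in post-MCS-01 wounds and 25.2, 24.7 and 13.6 CPM in blank wounds. Rnd1 had 31.3, 79 and 20.5 CPM in post-MCS-01 wounds and 4.2, 4.87 and 5.5 CPM in blank wounds. Post-MCS-01 replicate 2 was the highest of the 6 libraries for each of these 5 genes. All passed in the 6-library fit.

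Secreted defence proteins and cytokines made up much of the rest of the 10. Il20, a keratinocyte cytokine of the interleukin 10 family that drives epidermal thickening, had 3.98, 7.05 and 1.06 CPM in post-MCS-01 wounds, against 0.0588, 0.208 and 0 CPM in blank wounds. Its lowest post-MCS-01 value lay above the limit for 0 counts in blank replicate 3, and the log2 fold change was 5 ± 0.91 (edgeR adjusted p = 0.0729 over 12 libraries and 0.0474 over the 6). Defb3, an epithelial antimicrobial peptide, had 43.7, 105 and 24 CPM in post-MCS-01 wounds and 1.24, 0.707 and 0.262 CPM in blank wounds. Saa1, an acute-phase apolipoprotein with near-identical paralogs, had 12.5, 19.7 and 12.3 CPM in post-MCS-01 wounds and 0.921, 1.58 and 0.262 CPM in blank wounds. Chil3 (Ym1), a chitinase-like protein made by alternatively activated macrophages and by neutrophils in mice, had 16.4, 53.8 and 36.2 CPM in post-MCS-01 wounds, against 3.72, 4.26 and 2.36 CPM in blank wounds. Gzmb, the granzyme of cytotoxic lymphocytes, had 8.34, 5.09 and 8.01 CPM in post-MCS-01 wounds and 2.37, 1.85 and 2.1 CPM in blank wounds. None of these 5 overlapped between the groups, and each passed in the 6-library fit. Against pre-MCS-01 wounds, Il20 had a log2 fold change of 1.26 (edgeR adjusted p = 0.566) and Defb3 of 1.12 (0.694). Against DSCG wounds the values were 5.23 (0.0323) for Il20 and 3.63 (0.151) for Defb3.

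**Figure D3:**
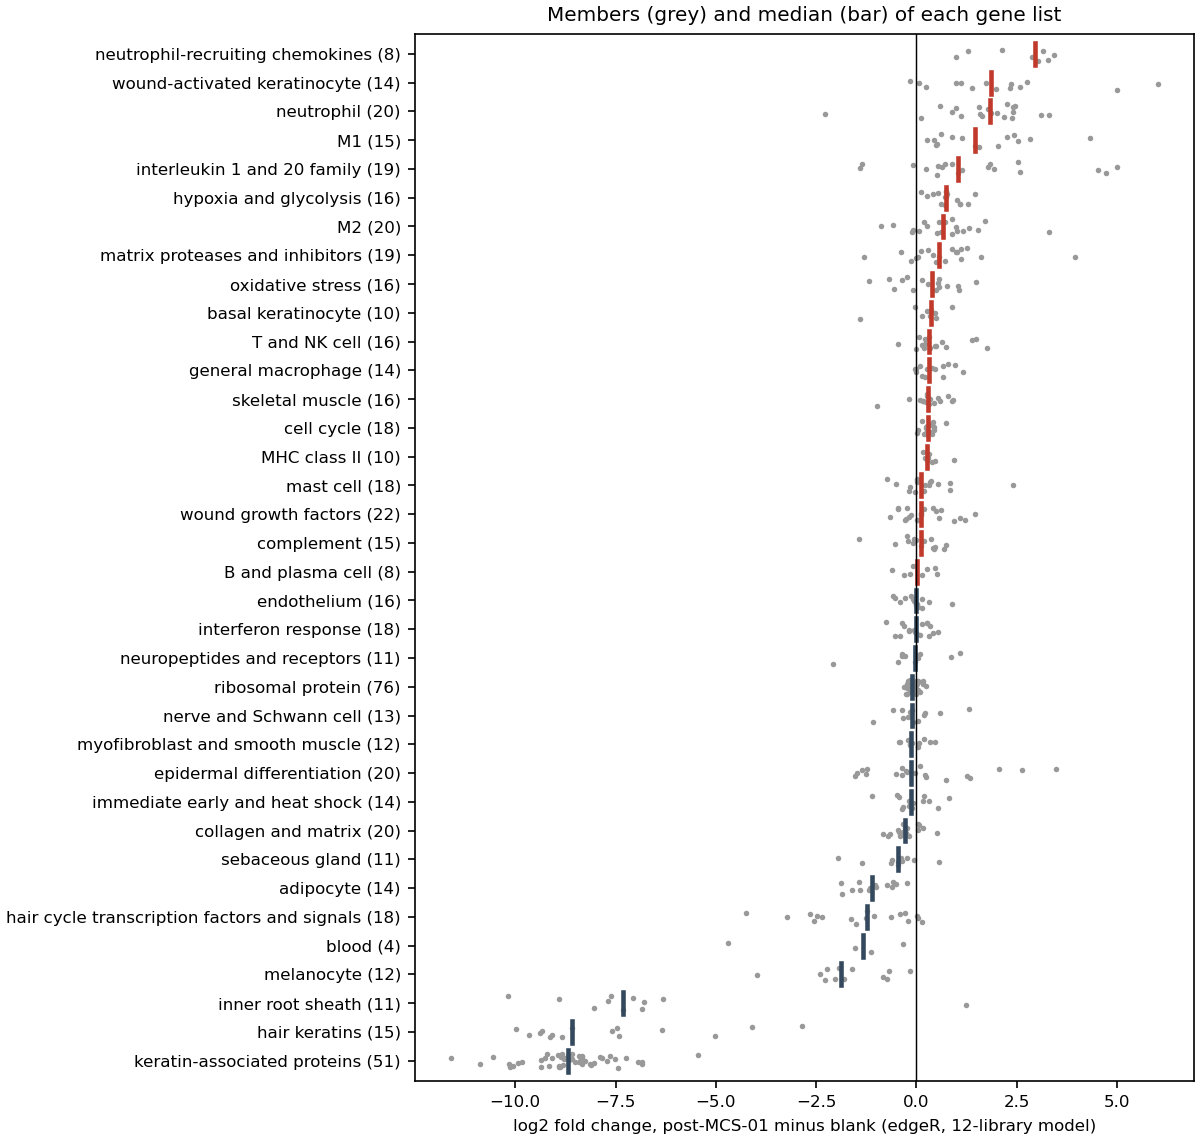
Log2 fold change between post-MCS-01 and blank wounds (x axis, edgeR, 12 libraries) of each tested member (grey points) and the median (bar) of 36 gene lists (y axis, number tested in brackets). The hair lists lie at medians of -8.67 to -7.31, apart from the rest, and neutrophil-recruiting chemokines have the highest median, 2.96; without post-MCS-01 replicate 2 it is 1.03, under the 1.39 of wound-activated keratinocyte genes.

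Wound-activated keratinocytes express stress keratins and antimicrobial proteins as they migrate. Of 14 such genes, 9 were higher at an unadjusted p under 0.05 and 0 lower, against 3.91% and 5.44% of all genes. Above every blank value lay 10, against 8.92%, and the median log2 fold change was 1.85. The list was written with earlier results of these data known. It holds Il20 and Defb3, of the 10 higher genes above, so these counts are not independent of them. Krt6a, a stress keratin, had 2491, 4458 and 2562 CPM in post-MCS-01 wounds, against 1633, 1690.2 and 1465 CPM in blank wounds. Krt16, its type I partner, had 4525, 9189.7 and 5102 CPM in post-MCS-01 wounds and 2032, 1202 and 3924 CPM in blank wounds. Neither keratin overlapped between the groups, yet neither passed in the 6-library fit (edgeR adjusted p = 0.250 and 0.352). Krt17, which is also made in the outer root sheath of the hair follicle, overlapped, with 6883, 6179.5 and 4285 CPM in post-MCS-01 wounds and 4929, 7220.1 and 7301 CPM in blank wounds. The 3 genes of the list that passed there were Il20, Defb3 and Defb4, another beta-defensin, at 7.56 ± 4.10 CPM in post-MCS-01 wounds and 1.11 ± 0.0555 CPM in blank wounds.

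Genes of the resting epidermis showed no common direction. Basal keratinocyte genes had a median of 0.36 over 10 genes, or 0.04 without post-MCS-01 replicate 2. Krt14, the type I keratin of basal cells, had 8694, 13155 and 9589 CPM in post-MCS-01 wounds and 7366, 6286 and 11107 CPM in blank wounds, and Krt5, its type II partner, had a log2 fold change of -0.04 ± 0.29. Krt15, a keratin of basal cells and follicle stem cells, averaged 446 ± 80.0 CPM in post-MCS-01 wounds and 1187 ± 610 CPM in blank wounds, with overlap at blank replicate 1. Among 20 differentiation genes the median was -0.13, and Krt1, Krt10 and loricrin (Lor), the main keratins and envelope protein of the upper layers, overlapped between the groups. Lor had 1243, 5928 and 1178 CPM in post-MCS-01 wounds and 4139, 3167 and 12544 CPM in blank wounds. The 2 members that passed in the 6-library fit were small proline-rich proteins, cross-linked envelope precursors induced in stressed epidermis. Sprr2d had 1153, 2201 and 708 CPM in post-MCS-01 wounds, against 148, 78.3 and 136 CPM in blank wounds, and Sprr2h averaged 273 ± 152 and 44.5 ± 15.1 CPM in post-MCS-01 and blank wounds. Chosen after their values were seen, Sprr2b and the late envelope gene Lce3a had log2 fold changes of 4.38 and 3.78 and passed there as well. Sprr2 genes are close copies of each other, so a single level is uncertain.

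Neutrophil genes were higher as a group by value, and 1 library carried much of the difference. Of 20 genes, 19 had a positive log2 fold change, against 49.2% of all genes. At an unadjusted p under 0.05, 5 were higher and 1 lower, against 3.91% and 5.44% of all genes. The median was 1.83, and 0.79 without post-MCS-01 replicate 2. S100a8, an antimicrobial calcium-binding protein of neutrophils that wound keratinocytes also make, had 1708, 3009 and 1483 CPM in post-MCS-01 wounds, against 259, 157 and 311 CPM in blank wounds. Its partner S100a9 had 3642, 6746 and 2856 CPM in post-MCS-01 wounds and 508, 303 and 532 CPM in blank wounds. Both were without overlap and passed in the 6-library fit (edgeR adjusted p = 0.0119 and 0.0128), as did Lcn2, an iron-siderophore binder, and Cd177, a neutrophil surface protein. Cd177 kept that call in 1 of the 6 fits that leave out a library, and Lcn2 in 2. Csf3r, the receptor of the neutrophil growth factor G-CSF, overlapped, with 28.2, 117 and 51.5 CPM in post-MCS-01 wounds and 34.3, 15.3 and 12.3 CPM in blank wounds. Padi4, the citrullinating enzyme of neutrophil extracellular traps, ran the other way and passed there, at 12.4, 7.22 and 9.89 CPM in post-MCS-01 wounds, against 56.5, 40.9 and 44.8 CPM in blank wounds. Padi3, the citrullinating enzyme of the inner root sheath list, was lower as well, with a log2 fold change of -7.31. Which cells made the Padi4 transcript was not tested.

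Chemokines that recruit neutrophils had the highest median of the 36 lists, 2.96 over 8 genes, but without post-MCS-01 replicate 2 it was 1.03, under the 1.39 of wound-activated keratinocyte genes. Cxcl1 had 19.1, 20.1 and 20.2 CPM in post-MCS-01 wounds, against 4.31, 2.06 and 1.05 CPM in blank wounds, without overlap (edgeR adjusted p = 0.272 over 12 libraries and 0.0148 over the 6). Cxcl2 had 19, 694 and 21.6 CPM in post-MCS-01 wounds and 65.5, 2.79 and 5.5 CPM in blank wounds, so that 1 library in each group stood above the others. Its log2 fold change was 3.28, and -0.28 without post-MCS-01 replicate 2. Cxcl3 had 13.7, 175 and 12.3 CPM in post-MCS-01 wounds and 15.3, 0.416 and 1.83 CPM in blank wounds, with the same 2 libraries high. Summed over the list, the 6 wounds held 71.5, 1042 and 99.8 CPM under post-MCS-01 and 123.0, 8.96 and 15.2 CPM under blank.

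Macrophage genes were given as a general list and as lists of the classically (M1) and alternatively (M2) activated states. The general list had a median of 0.32 over 14 genes. Cd68, a lysosomal protein, had 119, 82.9 and 171 CPM in post-MCS-01 wounds and 98.8, 85.2 and 85.4 CPM in blank wounds, and the survival receptor Csf1r and the integrin Itgam overlapped too, with log2 fold changes of 0.25 and 0.97. All 15 M1 genes had positive values, with a median of 1.46, or 0.87 without post-MCS-01 replicate 2. Of these, 3 were higher at an unadjusted p under 0.05, against 3.91% of all genes, and 0 passed in the 6-library fit. Nos2, the inducible nitric oxide synthase, had 2.37, 76.3 and 2.13 CPM in post-MCS-01 wounds and 7.8, 2.04 and 0.262 CPM in blank wounds, which overlap but for post-MCS-01 replicate 2. Its log2 fold change was 2.83, and -0.70 without that library. Tnf had 9.22, 20.7 and 6.61 CPM in post-MCS-01 wounds, against 4.14, 3.26 and 5.24 CPM in blank wounds, without overlap. Il6 averaged 2.44 ± 1.97 CPM in post-MCS-01 wounds and 0.343 ± 0.443 CPM in blank wounds, with 1 library of each group at like values. Of 20 M2 genes, 8 were higher and 0 lower at an unadjusted p under 0.05, against 3.91% and 5.44% of all genes. The M2 median was 0.66. Arg1, which takes arginine from nitric oxide synthesis, had 227, 452 and 132 CPM in post-MCS-01 wounds and 92, 76.9 and 79.4 CPM in blank wounds, without overlap. The mannose receptor Mrc1 overlapped, at 150 ± 50.6 CPM in post-MCS-01 wounds and 101 ± 32.5 CPM in blank wounds, and Chil3 alone of the 20 passed in the 6-library fit.

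The interleukin 1 and 20 families had 8 genes higher and 1 lower of 19 at an unadjusted p under 0.05. The shares over all genes were 3.91% and 5.44%. Il20, of the 10 higher genes above, is a member. The median was 1.04, or 1.67 without blank replicate 3 and 0.80 without post-MCS-01 replicate 2. Il33, an alarmin stored in nuclei of epithelial and stromal cells that activates mast cells through Il1rl1, had 109, 172 and 153 CPM in post-MCS-01 wounds, against 45.8, 29.4 and 38 CPM in blank wounds. The groups did not overlap, and the log2 fold change was 1.94 ± 0.49 (edgeR adjusted p = 0.163 over 12 libraries and 0.0116 over the 6). Il1a, released from damaged keratinocytes, had 12.2, 37.2 and 8.35 CPM in post-MCS-01 wounds and 7.29, 4.18 and 5.24 CPM in blank wounds. Il1b, mainly from myeloid cells, had 40.7, 554 and 59.2 CPM in post-MCS-01 wounds and 98.6, 4.55 and 8.65 CPM in blank wounds, with the same 2 libraries high as for Cxcl2. Il19, a relative of Il20, had 13.6, 16.4 and 6.7 CPM in post-MCS-01 wounds, against 0.49, 0.27 and 1.57 CPM in blank wounds, and passed in the 6-library fit. Among lymphocyte cytokines chosen after their values were seen, Il17f, which induces epithelial defence proteins, had 9.93, 9.53 and 2.64 CPM in post-MCS-01 wounds and 0.549, 0.603 and 0.262 CPM in blank wounds; it passed in the 6-library fit, and in 1 of the 6 fits that leave out a library. T and NK cell genes had a median of 0.32 over 16 genes, of which Gzmb alone passed in the 6-library fit.

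Genes of mast cells, the cells that a mast cell stabilizer acts on, had a median log2 fold change of 0.11 over 18 genes tested, with 0 at an unadjusted p under 0.05 in either direction by edgeR and 0 that passed in the 6-library fit. Of the 18, 1 gene lay above all blank values (Mcpt8) and 1 below (Mrgprb2). Over all genes the shares were 8.92% and 9.45%, and neither count exceeds its share. Cpa3, the granule carboxypeptidase, had 23.9, 11.2 and 26.3 CPM in post-MCS-01 wounds, against 23.8, 22 and 17.3 CPM in blank wounds. Mcpt4, the chymase of connective tissue mast cells, had 68, 28.2 and 95.6 CPM in post-MCS-01 wounds and 66.9, 59.9 and 61.8 CPM in blank wounds. The blank values lay within the span of the post-MCS-01 values for Mcpt4, and post-MCS-01 replicate 2 was the lowest of the 6 libraries for both genes. Cma1, another chymase, averaged 39.7 ± 18.4 CPM in post-MCS-01 wounds and 38.3 ± 1.23 CPM in blank wounds, and Tpsb2, a tryptase, 46.5 ± 15.2 and 52.1 ± 7.77 CPM in post-MCS-01 and blank wounds (SD, n = 3 each). The chymase Mcpt4 had a log2 fold change of 0.02 ± 0.39 and Cpa3 of -0.05 ± 0.31 (SE). The defining proteases of mast cells were thus detected in all 6 libraries.

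Receptor genes of mast cells had no unadjusted p under 0.05. Kit, the stem cell factor receptor that melanocytes share, averaged 8.58 ± 2.09 CPM in post-MCS-01 wounds and 13.9 ± 7.27 CPM in blank wounds. Fcer1a and Ms4a2, the alpha and beta chains of the high-affinity IgE receptor, had log2 fold changes of 0.21 and 0.32, the Mas-related receptors Mrgprb1 and Mrgprb2 of -0.19 and -0.50, and Il1rl1, the Il33 receptor, of 0.54. Hdc, the histidine decarboxylase that makes histamine in mast cells and in neutrophils, had 23.5, 243 and 41.7 CPM in post-MCS-01 wounds and 40.2, 8.48 and 7.6 CPM in blank wounds. Post-MCS-01 replicate 2 was the highest of the 6 libraries for Hdc, as it was for Cxcl2 and Il1b. The transcription factor Gata2, the monoamine transporter Slc18a2 and the prostaglandin synthase Hpgds had log2 fold changes of 0.18, 0.01 and 0.33. The proteases Tpsab1, Mcpt1, Mcpt2 and Mcpt8 had at most 1.45 CPM in any of the 6 libraries. Transcript levels do not measure degranulation.

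**Figure D4:**
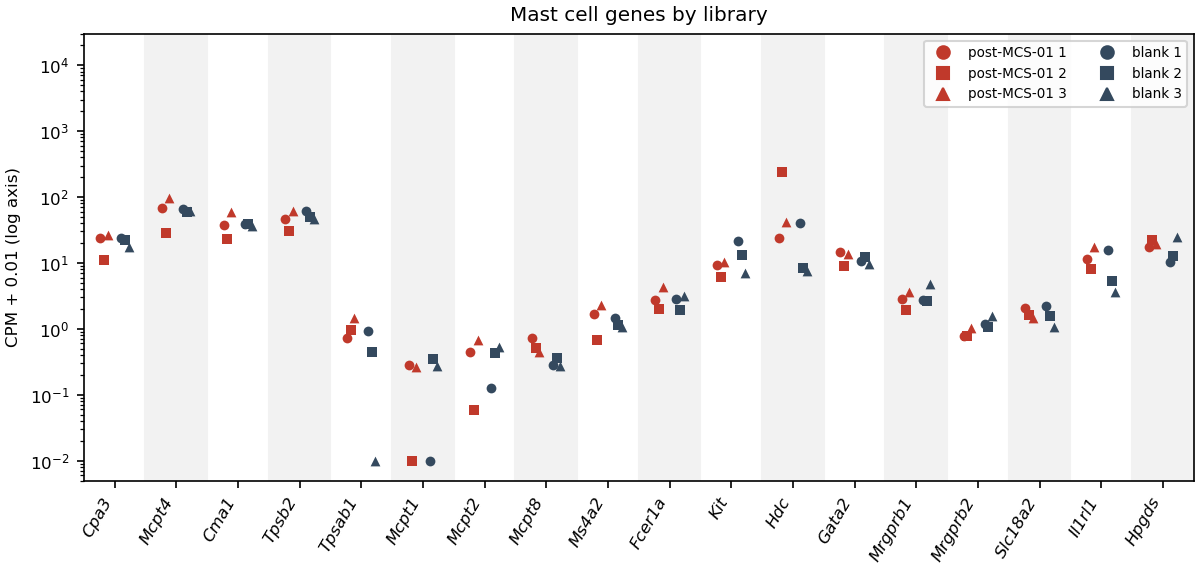
CPM plus 0.01 (log axis) of the 18 tested mast cell genes in each library, with post-MCS-01 libraries left of blank libraries for each gene. The proteases Cpa3, Mcpt4, Cma1 and Tpsb2 overlap between the groups, and Hdc reaches 243 CPM in post-MCS-01 replicate 2.

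Genes of hypoxia and glycolysis lay higher by value, while those of oxidative stress lay on both sides of 0. Of 16 hypoxia and glycolysis genes, 16 had positive log2 fold changes, against 49.2% of all genes. The 18 cell cycle and 10 MHC class II genes were all positive too. The hypoxia and glycolysis median was 0.74, or 0.51 without post-MCS-01 replicate 2. At an unadjusted p under 0.05, 7 of the 16 were higher, against 3.91% of all genes, and 0 passed in the 6-library fit. Hif1a, the oxygen-regulated transcription factor, had 186, 316 and 157 CPM in post-MCS-01 wounds, against 120.4, 94.3 and 56.6 CPM in blank wounds. Ldha, which makes lactate, had 1003, 1279.7 and 1023 CPM in post-MCS-01 wounds and 583, 615 and 789 CPM in blank wounds. Neither overlapped, while the glucose transporter Slc2a1 did, with a log2 fold change of 1.08 ± 0.55. Among 16 oxidative stress genes, 10 had positive and 6 negative log2 fold changes, with a median of 0.39. At an unadjusted p under 0.05, 5 were higher and 0 lower, against 3.91% and 5.44% of all genes. Sod2 alone passed in the 6-library fit. Hmox1, a haem-degrading enzyme, and Nqo1, a quinone reductase, had log2 fold changes of 0.56 and 0.55 without overlap, and Gclc, which starts glutathione synthesis, of -0.68. Chosen after their values were seen, the cystine importer Slc7a11 averaged 119 ± 76.8 CPM in post-MCS-01 wounds and 13 ± 3.07 CPM in blank wounds, and Cyp7b1, an oxysterol hydroxylase, 32.0 ± 4.78 and 7.34 ± 1.87 CPM in post-MCS-01 and blank wounds; both passed in the 6-library fit.

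Collagen and growth factor genes had small medians, of -0.29 and 0.11. Of the collagen and matrix genes, 0 of 20 were at an unadjusted p under 0.05. Col1a1, the alpha 1 chain of type I collagen, had 16314, 8263 and 20842 CPM in post-MCS-01 wounds and 29623, 16960.0 and 7255 CPM in blank wounds, and Col1a2 and Col3a1 followed the same order of libraries. Blank replicate 3, the shallow library low in long transcripts, was the lowest of the blank wounds for all 3 chains, and without it the median of the list was -0.62. Among 19 matrix protease genes the median was 0.57, and Mmp3, Mmp9 and Mmp13, which cut matrix and collagen, overlapped, at log2 fold changes of 1.02, 0.88 and 0.57. Vegfa, the main driver of vessel growth, had 73.1, 164 and 47.7 CPM in post-MCS-01 wounds, against 37.8, 46.7 and 37.7 CPM in blank wounds, just without overlap. Pdgfb averaged 33.7 ± 4.36 CPM in post-MCS-01 wounds and 46.4 ± 2.08 CPM in blank wounds, without overlap, and Pdgfa, a related platelet-derived growth factor chain, overlapped. Neither Vegfa nor Pdgfb passed in the 6-library fit (edgeR adjusted p = 0.292 and 0.324).

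Adipocyte genes lay lower in post-MCS-01 wounds by value: 14 of 14 had negative log2 fold changes, and the median was -1.10. At an unadjusted p under 0.05, 7 were lower, against 5.44% of all genes, and 0 passed in the 6-library fit. Adipoq, the adipocyte hormone adiponectin, had 27, 7.75 and 18.4 CPM in post-MCS-01 wounds, against 33.5, 57.2 and 70.7 CPM in blank wounds. Lep, the hormone leptin, had 3.58, 0.576 and 3.42 CPM in post-MCS-01 wounds and 8.37, 6.11 and 5.24 CPM in blank wounds. Plin1, the lipid droplet coat protein, averaged 19.6 ± 9.60 CPM in post-MCS-01 wounds and 44.2 ± 15.3 CPM in blank wounds. Post-MCS-01 replicate 2 was the lowest of the 6 libraries for each of the 3 genes. The list's summed level was 1115, 418.7 and 1005 CPM in post-MCS-01 wounds and 1278, 1920 and 2373 CPM in blank wounds, so adipocyte transcripts moved with the groups; their part in the other results was not tested.

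Among lists of other cell types the tissue could hold and of broad cell processes, the medians were those of sebaceous gland (-0.45), skeletal muscle (0.28), MHC class II (0.27), cell cycle (0.28), endothelium (-0.01), nerve and Schwann cell (-0.11), B and plasma cell (0.02), myofibroblast and smooth muscle (-0.13) and neuropeptides (-0.03). Complement, interferon response, immediate early and ribosomal protein genes had medians of 0.11, -0.01, -0.14 and -0.11. Without blank replicate 3, these medians were -0.015, 0.11, -0.038 and 0.28, in the same order. The 4 blood genes tested had a median of -1.34. All 4 had negative log2 fold changes, and 2 were lower at an unadjusted p under 0.05, against 5.44% of all genes. Among them, Slc4a1, the anion exchanger of red cells, had 0.277, 0.504 and 0.275 CPM in post-MCS-01 wounds, against 13.5, 8.42 and 4.72 CPM in blank wounds. It passed in the 6-library fit (edgeR adjusted p = 0.00459). The adult globin genes Hba-a1, Hba-a2 and Hbb-bs, near-identical copies, were listed at 0 in every library.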

How the data were processed

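Total RNA from flash-frozen wounds was made into Illumina TruSeq libraries, per the labels' protocols. The authors deposited 1 file of raw read counts per gene symbol for each library; the submitters' processing notes name TopHat2, Bowtie2, HTSeq and the mm10 build, with no version or strand setting. The counts cover 24062 symbols. The 5 summary lines were left out: reads with no feature were 4.34% to 6.81% of all and reads with several alignments 17.2% to 23.4%. Depth was 3835042 to 50461867 gene counts; whether reads were independent molecules is not recorded.

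Genes were filtered with filterByExpr and scaled by TMM (edgeR 4.0.16, R 4.3.3), then tested with glmQLFTest on 12 libraries and 4 group means. CPM values used TMM scaling; fitted log2 fold changes include edgeR's prior count. Alternatives were the 6 libraries alone, DESeq2 1.42.0, limma 3.58.1 voom, other scalings, no filter, thinning and leaving out each library. The test was checked on simulated data. Named genes were the 10 with the smallest p in each direction at a mean of at least 1 CPM, as 0 passed, and the first 3 counted symbols of the lists described, with all mast cell genes. Further members of the lists were named after their values were seen. They include Krt35, Krt84, Tgm3, Fgf5, Lef1, Krtap5-4, Krtap24-1, Defb4, Sprr2d, Sprr2h, Lcn2, Cd177, Padi4, Il19 and Slc4a1. The members and lists were chosen with earlier results of these data known. Gene positions are from GENCODE M21 and promoters from RefSeq, matched by symbol. The p-values measure the spread between mice of 1 study.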

Additional observations from a re-analysis of the deposited data

How the results depend on the processing

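No paired analysis was possible because each library came from its own mouse and the labels give no number that groups share. The count of called genes, 0 in edgeR on 12 libraries, stayed at 0 with RLE or total-count scaling, voom, thinning, and without the 3 libraries low in long transcripts (chosen after seeing the data). It was 37 with no filter on low counts, 409 with DESeq2, 827 with voom and library quality weights, and 255 on the 6 libraries alone. Leaving out single libraries gave 0 in the 12-library fit. In the 6-library fit, leaving out single libraries gave 109 to 191 (a set chosen after seeing the data). The cause was not tested. Lists with a median beyond 1 on the log2 scale numbered 12, against 8 with quality weights and 7 to 12 when single libraries were left out. No list median that exceeded 1 changed sign. Some named genes changed sign, among them Nos2 and Cxcl2, at 2.83 and 3.28 over 12 libraries. With voom, Mcpt4, Cma1, Mcpt2 and Slc18a2 were at -0.15, -0.069, -0.11 and -0.036, and Col1a1, Col1a2 and Col3a1 at 0.014, 0.054 and 0.077. With quality weights, Cpa3, Mrgprb1, Nos2, Krt17 and Krt1 were at 0.030, 0.080, -0.34, 0.011 and -0.16. DESeq2 gave -0.0534 for Mcpt1 and -0.027 for Slc18a2, and the 6-library fit -0.0063 for Slc18a2. Without the 3 libraries low in long transcripts, Mrgprb1, Slc18a2, Krt5 and Krt10 were at 0.085, -0.13, 0.039 and 0.12. Leaving out single libraries gave ranges of -0.85 to 2.86 for Mcpt1, -0.15 to 0.31 for Slc18a2, -0.39 to 0.41 for Mcpt4, -0.36 to 0.36 for Cma1, -0.31 to 1.11 for Mcpt2, -0.27 to 0.28 for Cpa3, -0.45 to 0.10 for Mrgprb1, -0.42 to 0.085 for Tpsb2, -0.10 to 0.71 for Ms4a2 and -0.15 to 0.46 for Fcer1a. The ranges were -0.62 to 0.34 for Col1a1, -0.54 to 0.32 for Col1a2, -0.72 to 0.41 for Col3a1, -0.33 to 0.0093 for Krt17, -0.48 to 0.59 for Krt1, -0.23 to 0.063 for Krt5, -1.26 to 0.16 for Krt10, -0.75 to 4.15 for Nos2 and -0.31 to 6.02 for Cxcl2.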

Other observations

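Several genes outside the lists passed in the 6-library fit; those named here were chosen after their values were seen. Cd274, the checkpoint ligand PD-L1, had 30.4, 63.4 and 23.5 CPM in post-MCS-01 wounds, against 8.76, 6.92 and 5.24 CPM in blank wounds. Ctla4, a checkpoint receptor of regulatory and activated T cells, had 5.64, 3.29 and 3.49 CPM in post-MCS-01 wounds and 0.961, 1.16 and 1.05 CPM in blank wounds. Neither overlapped between the groups, and their log2 fold changes were 2.45 ± 0.55 and 1.96 ± 0.49 (SE, n = 3 each; edgeR adjusted p = 0.0302 and 0.0354 over the 6 libraries, 0.1 and 0.153 over 12). Leaving out any 1 of the 6 libraries ended the 6-library call of Ctla4, and 4 of the 6 such fits ended that of Cd274. Slc40a1, the iron exporter ferroportin, had 26.6, 21.2 and 14.6 CPM in post-MCS-01 wounds, against 90.4, 74.6 and 70.2 CPM in blank wounds. Sox4, a developmental transcription factor, had 99.6, 68.3 and 67.6 CPM in post-MCS-01 wounds and 161, 182 and 181 CPM in blank wounds, a log2 fold change of -1.15 ± 0.21 with narrow groups; its 6-library call, too, ended whichever library was left out.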
